A study of Mus musculus with 6 samples.

Results

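Expression of 44 genes for peroxisome biogenesis and peroxisomal enzymes was examined in mouse liver, out of 54532 genes with an Ensembl identifier in the count table. The genes were taken from a list by their GENCODE M21 symbol and were arranged by role into 13 peroxins, 12 enzymes of beta-oxidation, 2 of alpha-oxidation, 4 enzymes controlling CoA and malonyl-CoA, 3 of ether lipid synthesis, 4 oxidases, 3 enzymes removing peroxide, epoxides or glyoxylate, and 3 membrane proteins or proteases. RNA-seq had been performed on liver of wild-type male C57BL/6J mice that entered at 8 weeks of age and received a high-fat diet (HFD) for 4 weeks. The mice then stayed on the diet for a further 4 weeks, either without addition (HFD, replicates 1 to 3) or with allantoin in the drinking water (HFD+allantoin, replicates 4 to 6). The labels name 0.06 and 0.3 mg/mL of allantoin and give no dose for a single library. The study's results and figure legend place the sequenced livers in its high-dose group, for which its methods give 0.3 mg/mL. Both groups received the high-fat diet, so no chow liver is compared here, and the labels do not say that each library is a separate mouse, so p-values measure the spread between these libraries. Of the 44 genes, 43 passed the filter on low counts. Among these, 5 rose (11.6%, against 11.3% of all tested genes) and 1 fell (2.33%, against 13.0%). Pex7, Pex19, Pex26, Ehhadh and Gnpat rose with allantoin and Pxmp4 fell.

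Peroxisomes are single-membrane organelles that shorten very-long-chain and branched fatty acids and bile acid precursors, begin the synthesis of ether lipids and destroy the hydrogen peroxide their oxidases make. Peroxins, the products of Pex genes, insert the membrane proteins, carry enzymes from the cytosol into the organelle and divide it, whereas the enzymes themselves do the metabolic work. In rodent liver the nuclear receptor PPAR alpha is known to switch on many genes of peroxisomal fatty acid oxidation, and fasting, fat feeding and fibrate drugs are classic triggers.

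Enzymes are sorted to the peroxisome by short signals that tie the 2 main roles of the list together. The receptor PEX5 binds a signal at the very end of the protein (type 1), and PEX7 binds a longer one near its start (type 2). The last 30 coding bases before the stop codon, from GENCODE M21 on GRCm38, are shown for the 2 enzymes that rose and end in a type 1 signal, for 2 that end in it and did not pass the test, and for catalase, whose end is a known variant. The capitals mark the last 3 codons.
Ehhadh: agcttggcaggaccccatagcAGCAAACTG
Gnpat: ccaataggaaaaccagccactGCAAAACTA
Lonp2: accagacctggtctcattgacAGCAAACTA
Scp2: cttcagcttcagccgggcaaaGCTAAGCTG
Cat: cacatggctgcgaagggaaaaGCTAACCTG
These stretches lie at chr16:21762087-21762116 (minus strand) for Ehhadh, chr8:124889283-124889312 (plus) for Gnpat, chr8:86716439-86716468 (plus) for Lonp2, chr4:108044753-108044782 (minus) for Scp2 and chr2:103454759-103454788 (minus) for Cat. A type 1 signal was counted where the last 3 codons read serine, alanine or cysteine, then lysine, arginine or histidine, then leucine or methionine, and catalase does not meet this definition. Nor do other close ends, such as serine, lysine and isoleucine in Ephx2 and Hao1 or asparagine, lysine and leucine in Agxt. Only the longest coding transcript of each gene was read, so a gene left out by the search may still encode a type 1 signal. The signal was present in 13 of the 44 genes (29.5%), in 0 of the 13 peroxins and in 13 of the 31 other members (41.9%), against 108 of 21526 coding genes (0.502%). With edgeR's quasi-likelihood test at an adjusted p under 0.05, 11.3% of all tested genes rose and 13.0% fell. Of the 12 tested genes with a type 1 end, 2 rose, 0 fell, and their log2 fold changes ran from -0.33 to 1.03 with a median of 0.05.

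The type 2 signal was searched in the first 40 codons as arginine, then leucine, valine, isoleucine or glutamine, any 2 residues, leucine, valine, isoleucine, histidine or glutamine, then leucine, serine, glycine, alanine or lysine, any residue, histidine or glutamine, and leucine, alanine or phenylalanine. It was found in 3 of the 44 genes (6.82%) and in 22 of 21526 coding genes (0.102%). The 27 bases that encode it are shown because PEX7, whose own transcript rose, binds signals of this kind, and all of them are in capitals since the whole run is the signal. Agps, whose protein is also known to be carried by PEX7, was not matched by this search.
Acaa1a: CGGCTGCAGGTAGTGCTGGGCCACCTG
Acaa1b: CGGCTGCAGGTAGTGCTGGGTCACCTG
Phyh: CGGCTGCAGGTCCTTCTGGGACACCTC
The run starts at codon 3 in Acaa1a and Acaa1b and at codon 9 in Phyh. None of these 3 genes passed the test (0 rose and 0 fell), and their log2 fold changes ran from -0.39 in Phyh to 0.33 in Acaa1b.

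The libraries held 11326372 to 14601457 counts. The HFD libraries stood apart in composition, with 36.5%, 20.2% and 17.9% of counts from the mitochondrial chromosome in replicates 1, 2 and 3, against 6.92% to 11.4% in the HFD+allantoin libraries. Counts were therefore scaled with edgeR's TMM factors, which were 0.756 to 0.951 in HFD and 1.12 to 1.19 in HFD+allantoin, and levels are given as CPM, each count divided by the library's effective size. Markers of other liver cells were summed in each library. The 11 Kupffer cell and macrophage markers summed to 178, 421 and 250.1 CPM in HFD and to 479, 491 and 549.7 CPM in HFD+allantoin, with 3 of 11 called higher, and the 9 stellate cell markers to 175, 227 and 154 CPM against 346, 409 and 422 CPM, with 6 of 9 called higher. The sums of the 10 hepatocyte markers ran from 100200 to 104300 CPM in HFD and from 77740 to 106200 CPM in HFD+allantoin, with 1 called higher and 3 lower. Over all tested genes, 11.3% were called higher and 13.0% lower. Alb alone made up 54400 to 82140 CPM of the hepatocyte sums in HFD+allantoin. Of these 10 markers 2 were positive and 8 negative (median log2 fold change -0.58), and 1 was higher and 6 lower without overlap. Sums of the sinusoidal endothelial, cholangiocyte, adipocyte, blood, lymphocyte and kidney or pancreas markers overlapped between the groups. The adipocyte sum was mostly Car3, at 2473 to 4140 CPM. The defining adipocyte genes Adipoq (51.4 CPM) and Plin1 (49.2 CPM) stood out in HFD replicate 2, with 520 and 498 counts, against 1 count each in HFD+allantoin replicate 4 and 0 in the remaining libraries. The part of the mitochondrial share and of the Kupffer and stellate markers in the results below was not tested. In whole liver, fewer cells of a type and less RNA per cell cannot be told apart.

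The comparison asks how allantoin, given on top of the high-fat diet, altered the transcripts of this organelle. With edgeR's quasi-likelihood test at an adjusted p under 0.05, over 12795 genes, 5 of the 43 tested members rose (11.6%) and 1 fell (2.33%), while 11.3% of all tested genes rose and 13.0% fell. The share that rose was thus near the background, and the share that fell was lower than it. Of the calls over all genes 46.5% were higher, which became 82.4% when libraries were scaled by their size only. Under that scaling 15 members were called higher and 0 lower, the median log2 fold change of all tested genes moved to 0.38, and 10 of the 13 negative members came to lie between 0.02 (Phyh) and 0.37 (Pex16), while Pxmp4, Pex10 and Agxt stayed negative. All 3 HFD+allantoin values lay above all 3 HFD values in 14 members (32.6%) and below them in 6 (14.0%), against 22.4% and 21.9% of all tested genes. The median log2 fold change of the members was 0.14 and that of all tested genes -0.03, with 30 members positive and 13 negative. Most members moved little. The SD of their log2 fold changes was 0.43, against 0.86 over all tested genes, and 33 of them (76.7%) lay within 0.5 of 0, against 51.2% of all tested genes and 55.7% of the 7170 genes with a mean over 10 CPM. Of the 37 tested members that were not called, 25 were positive and 12 negative, within -0.69 to 0.61. At an unadjusted p under 0.05, 9 members were higher and 3 lower. The share of all tested genes past that threshold was not calculated, so no excess can be read from these counts.

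**Figure D1:**
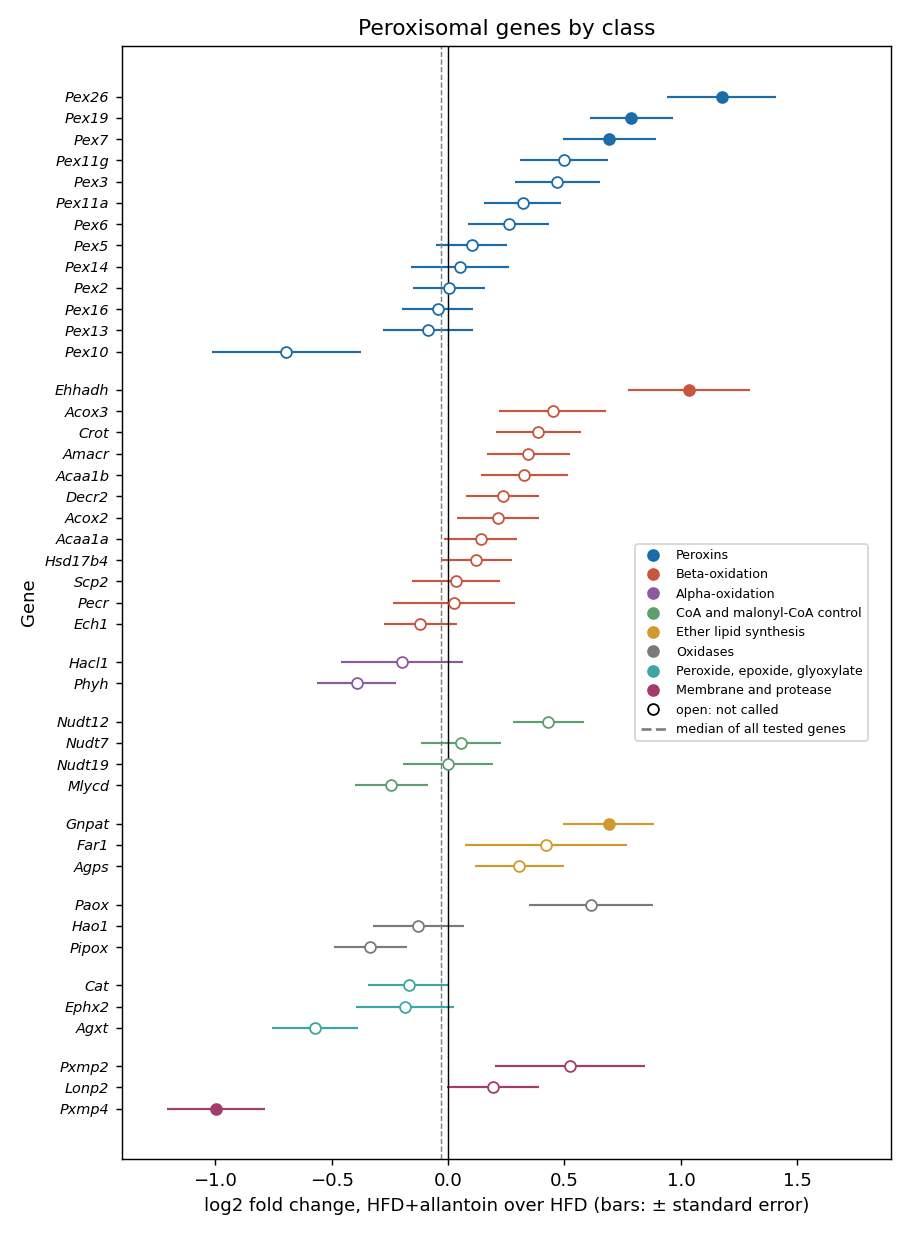
Log2 fold change of HFD+allantoin over HFD for the 43 tested members (x axis; bars, ± standard error), grouped and coloured by role, with filled points for the 6 members past an adjusted p of 0.05 and a dashed line at the median of all tested genes (-0.03). The called peroxins Pex26, Pex19 and Pex7 lie at 1.17, 0.79 and 0.69, Ehhadh at 1.03 and Gnpat at 0.69, Pxmp4 lies at -0.997, and the other members sit between -0.69 and 0.61.

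Among the peroxins, 3 of 13 rose (23.1%, against 11.3% of all tested genes) and 0 fell (against 13.0%), with 10 positive and 3 negative values and a median log2 fold change of 0.26. Pex26 anchors at the peroxisome membrane the ATPase complex that holds PEX6 and pulls used import receptors back out. Its level was 16.3, 14.5 and 8.61 CPM in HFD (149, 147 and 103 counts) and 29.1, 29.9 and 29.6 CPM in HFD+allantoin (397, 506 and 439 counts). The groups did not overlap, with the lowest value in HFD replicate 3 and the 3 HFD+allantoin libraries nearly level. Pex26 (ENSMUSG00000067825, chr6:121183667-121198837, plus strand) rose by 1.17 ± 0.23 on the log2 scale (SE, adjusted p = 0.00946), from 13.1 ± 4.01 to 29.6 ± 0.419 CPM (SD, n = 3 each). It was the member with the smallest p, and 133 bases of its exons overlap the opposite-strand entry Gm44014. Pex6, the ATPase partner, was at 84.9, 76.6 and 87.0 CPM in HFD and 111, 106 and 80.9 CPM in HFD+allantoin, which overlapped (log2 fold change 0.26, adjusted p = 0.298).

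Pex19 encodes the chaperone that picks up newly made peroxisomal membrane proteins in the cytosol. It was at 52.1, 71.8 and 74.7 CPM in HFD and at 117, 114 and 112 CPM in HFD+allantoin. The groups did not overlap and HFD replicate 1 was the lowest library. Pex19 (ENSMUSG00000003464, chr1:172126755-172136493, plus strand) rose 1.73-fold, by 0.79 ± 0.18 on the log2 scale (SE, adjusted p = 0.0151). The other members that build the membrane were not called. Pex3, the docking partner of PEX19, was at 18.3, 22.0 and 26.4 CPM in HFD and 29.03, 29.6 and 34.02 CPM in HFD+allantoin, without overlap (log2 fold change 0.47, adjusted p = 0.0880), and Pex16 had a log2 fold change of -0.04. Exons of Pex3 share 249 bases with Adat2 on the opposite strand, and those of Pex16 share 127 bases with Large2.

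Pex7 encodes the receptor for the type 2 signals shown above. It was at 32.97, 53.2 and 50.6 CPM in HFD and at 75.5, 71.0 and 74.8 CPM in HFD+allantoin, again without overlap and with HFD replicate 1 lowest. Pex7 (ENSMUSG00000020003, chr10:19853900-19907689, minus strand) rose 1.62-fold, by 0.69 ± 0.20 on the log2 scale (SE, adjusted p = 0.0355). Pex5, the receptor for the far more common type 1 signal, was at 117, 103 and 96.4 CPM in HFD and 114, 117 and 108 CPM in HFD+allantoin, with overlap (log2 fold change 0.10, adjusted p = 0.664). The docking peroxins Pex13 and Pex14, which receive the loaded receptors, had log2 fold changes of -0.09 and 0.05.

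The RING peroxins Pex2 and Pex10 mark PEX5 with ubiquitin for recycling. Pex2 was level (log2 fold change 0.00, adjusted p = 0.989). Pex10 had the lowest counts of the peroxins, at 70, 52 and 57 in HFD and 54, 70 and 40 in HFD+allantoin, or 7.64, 5.14 and 4.77 against 3.96, 4.14 and 2.70 CPM. These values did not overlap and lay lower in HFD+allantoin, but the difference did not pass the test (log2 fold change -0.69, SE 0.32, adjusted p = 0.143). Pex11a and Pex11g take part in peroxisome growth and division. Pex11g was at 13.1, 18.2 and 13.7 CPM in HFD and 23.5, 19.9 and 20.1 CPM in HFD+allantoin (log2 fold change 0.50, adjusted p = 0.0856), and 1396 bases of its exons overlap the opposite-strand entry Gm44775. Pex11a, widely used as a PPAR alpha target, was at 138, 108 and 116 CPM in HFD and 156, 134 and 161 CPM in HFD+allantoin, with overlap (log2 fold change 0.32, adjusted p = 0.189).

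**Figure D2:**
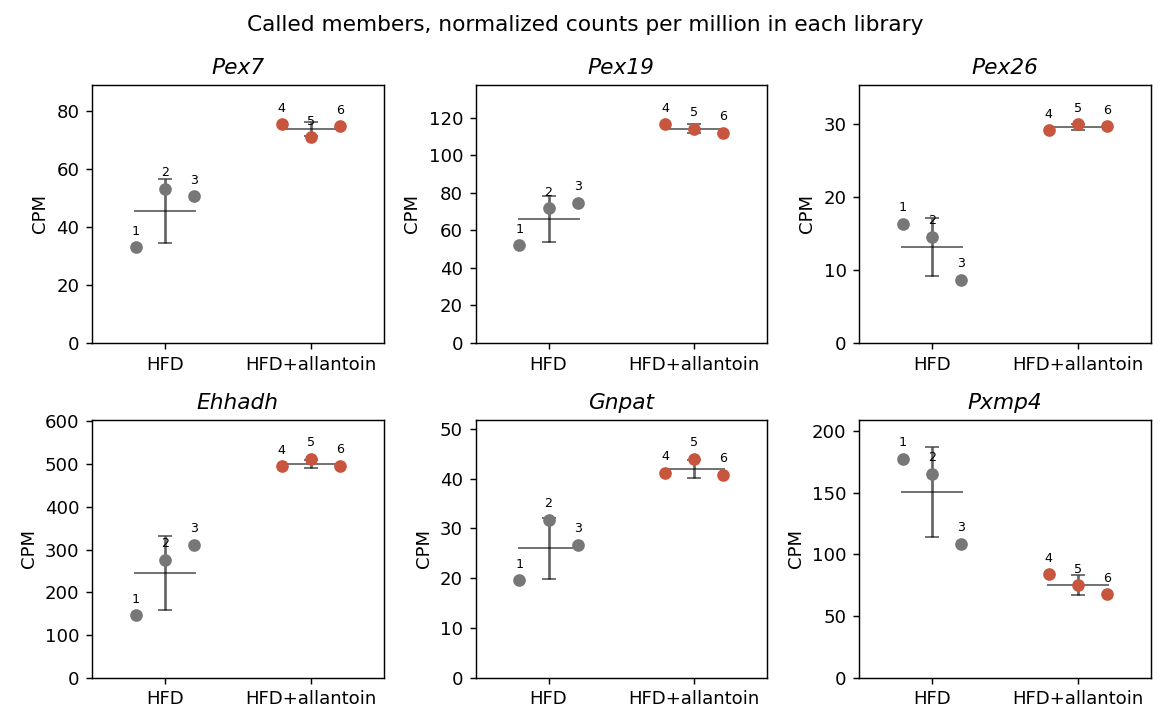
Normalized CPM (y axis, from 0) of the 6 called members in each library, with points numbered by replicate, grey for HFD and red for HFD+allantoin, a horizontal line at the group mean and bars of ± 1 SD. In the 5 genes that rose the HFD+allantoin points lie close together above every HFD point, for example at 494 to 512 CPM against 146 to 311 CPM in Ehhadh, and in Pxmp4 they lie at 67.5 to 83.8 CPM below 109 to 177 CPM.

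Beta-oxidation had 11 positive values of 12, yet 1 enzyme rose (8.33%, against 11.3% of all tested genes) and 0 fell (against 13.0%), and the median log2 fold change was 0.22. The enzyme was Ehhadh, the L-bifunctional protein, which hydrates and dehydrogenates the straight-chain intermediates of the cycle and is a well-known PPAR alpha target. It was at 146, 276 and 311 CPM in HFD (1339, 2797 and 3719 counts) and at 494, 512 and 497 CPM in HFD+allantoin (6744, 8652 and 7357 counts). HFD replicate 1, the library with the largest mitochondrial share, was the lowest, and even the highest HFD library lay below all HFD+allantoin libraries. Ehhadh (ENSMUSG00000022853, chr16:21761287-21787807, minus strand) rose 2.05-fold, by 1.03 ± 0.26 on the log2 scale (SE, adjusted p = 0.0225), and no other annotated exon overlaps it.

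Hsd17b4, the D-bifunctional protein that handles branched chains and bile acid precursors in the parallel reaction, was at 533, 572 and 538 CPM in HFD and 594, 577 and 617 CPM in HFD+allantoin. Its groups did not overlap either, but by a narrow margin, and the log2 fold change was 0.12 (adjusted p = 0.586). The oxidases that open the cycle for branched chains, Acox2 and Acox3, had log2 fold changes of 0.21 and 0.45 with overlapping groups. The thiolases that close it were Scp2 at 0.03, Acaa1a at 0.14 and Acaa1b at 0.33, where Acaa1b was at 1275, 1520 and 1553 CPM in HFD and 2112, 1729 and 1619 CPM in HFD+allantoin without overlap (adjusted p = 0.224). Reads of Acaa1a and Acaa1b may have been divided between them, since their transcripts match at 96.6% over 1428 bases, and those of Scp2 with its copy Scp2-ps2 at 99.6% over 1371 bases.

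Crot, which moves shortened acyl chains onto carnitine for export to mitochondria, was at 902, 999.6 and 1189 CPM in HFD and 1355, 1206 and 1480 CPM in HFD+allantoin, without overlap (log2 fold change 0.39, adjusted p = 0.150). The auxiliary enzymes that handle double bonds and stereochemistry were Decr2 at a log2 fold change of 0.24, also without overlap, Amacr at 0.35, Pecr at 0.03 and Ech1 at -0.12, the only negative value of the 12 (adjusted p of 0.182 to 0.955). Apart from Ehhadh, log2 fold changes in the class thus ran from -0.12 to 0.45.

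Ether lipid synthesis begins in the peroxisome, where GNPAT acylates dihydroxyacetone phosphate, AGPS swaps the acyl chain for a fatty alcohol and FAR1 supplies that alcohol. Gnpat was at 19.5, 31.7 and 26.7 CPM in HFD (179, 321 and 319 counts) and at 41.1, 43.95 and 40.8 CPM in HFD+allantoin (561, 743 and 604 counts). All 3 HFD+allantoin libraries lay above all HFD libraries. Gnpat (ENSMUSG00000031985, chr8:124863033-124890057, plus strand) rose 1.61-fold, by 0.69 ± 0.20 on the log2 scale (SE, adjusted p = 0.0330). Its exons share 280 bases with Gm16163 on the same strand and 88 bases with 2810004N23Rik on the opposite strand. Agps was at 9.498, 8.40 and 9.28 CPM in HFD and 10.6, 10.8 and 12.2 CPM in HFD+allantoin, without overlap (log2 fold change 0.31, adjusted p = 0.268), and Far1, at 23 to 34 counts in HFD and 41 to 59 in HFD+allantoin, had a log2 fold change of 0.42 ± 0.35 (SE, adjusted p = 0.401).

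The enzymes of the other routes mostly lay at or below 0, and none was called. Phyh, which starts alpha-oxidation of phytanic acid, was at 1827, 2058 and 2046 CPM in HFD and 1510, 1624 and 1387 CPM in HFD+allantoin. The groups did not overlap and the log2 fold change was -0.39 (SE 0.17, adjusted p = 0.121). Hacl1, the lyase of the same route, was at -0.20, and its exons share 1540 bases with Gm49387 on the same strand. Agxt, which turns glyoxylate into glycine, was at 219, 301 and 242 CPM in HFD and 185, 182 and 147 CPM in HFD+allantoin, without overlap and with a log2 fold change of -0.57 (SE 0.18) just outside the threshold (adjusted p = 0.0517). Catalase, the peroxide-destroying enzyme of the matrix, was at 2842, 3233 and 3182 CPM in HFD and 2891, 2789 and 2558 CPM in HFD+allantoin, with overlap (log2 fold change -0.17, adjusted p = 0.512), and Ephx2, the soluble epoxide hydrolase, was at -0.19.

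Among the oxidases, Paox, which acts on acetylated polyamines, was at 7.64, 11.8 and 12.0 CPM in HFD and 13.9, 21.3 and 12.9 CPM in HFD+allantoin. The groups did not overlap, by a margin of less than 1 CPM, and the log2 fold change was 0.61 (SE 0.27, adjusted p = 0.121). Paox matches the entry Gm19680 at 99.9% over 1358 bases, and reads may have been divided between them. Pipox, which oxidizes sarcosine and pipecolic acid, was at 252, 249 and 210 CPM in HFD and 196, 191 and 177 CPM in HFD+allantoin, without overlap (log2 fold change -0.33, adjusted p = 0.148), and the glycolate oxidase Hao1 was at -0.13. Dao, the D-amino acid oxidase, had 3 counts in HFD replicate 3 and 0 in the other 5 libraries and was not tested. Nudt12, which hydrolyses nicotinamide dinucleotides, was at 51.2, 52.6 and 56.2 CPM in HFD and 67.4, 68.3 and 79.98 CPM in HFD+allantoin, without overlap (log2 fold change 0.43, SE 0.15, adjusted p = 0.0685). The CoA hydrolases Nudt7 and Nudt19 were at 0.06 and 0.00, and the malonyl-CoA decarboxylase Mlycd, whose groups did not overlap, was at -0.24 (adjusted p = 0.283).

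Pxmp4, an integral membrane protein of the peroxisome, was the single member that fell. It was at 177, 165 and 109 CPM in HFD (1624, 1673 and 1300 counts) and at 83.8, 74.8 and 67.5 CPM in HFD+allantoin (1143, 1264 and 1000 counts). Every HFD+allantoin library lay below every HFD library. Pxmp4 (ENSMUSG00000000876, chr2:154585758-154603708, minus strand) fell by 0.997 ± 0.21 on the log2 scale (SE, adjusted p = 0.0118), from 150.4 ± 36.6 to 75.4 ± 8.17 CPM (SD, n = 3 each), and no other annotated exon overlaps it. Pxmp2, a membrane channel, was at 30.7, 81.7 and 73.4 CPM in HFD and 91.7, 100.2 and 75.1 CPM in HFD+allantoin, with overlap (log2 fold change 0.52, SE 0.32, adjusted p = 0.263). The matrix protease Lonp2 was at 0.19 (adjusted p = 0.503).

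The calls differed in how far they depended on single libraries. Pex26 was called under each of 15 alternatives that refit it, at log2 fold changes of 0.94 to 1.61. Leaving out any of the 3 HFD+allantoin libraries took Pex19 (adjusted p up to 0.0643), Ehhadh (up to 0.0801), Gnpat (up to 0.115) and Pex7 (up to 0.138) past the threshold. In each of these fits 1 member was called higher, and leaving out HFD+allantoin replicate 5 or 6 took Pxmp4 past the threshold too (up to 0.0818). Calls were lost over the whole table in these fits. Of all tested genes, 4.51%, 3.48% and 5.31% rose without replicates 4, 5 and 6, against 11.3% in the main fit. The share that fell was 5.29%, 4.27% and 6.29%, against 13.0%. Without HFD replicate 1, 5 members were called higher and 2 lower, the added one being Agxt, while 9.27% of all tested genes rose and 10.2% fell. With the mitochondrial chromosome left out, the 6 calls stood.

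The classes were then set against each other within each library, where the ratio of sums does not depend on how libraries are scaled. Summed peroxin CPM was 8.48%, 8.47% and 7.46% of summed beta-oxidation CPM in HFD and 8.50%, 8.95% and 8.58% in HFD+allantoin, so that the groups were separated by a hair. The ether lipid enzymes stood at 0.383%, 0.487% and 0.394% of the beta-oxidation sum in HFD and at 0.526%, 0.593% and 0.561% in HFD+allantoin, all higher. Gnpat, called on its own above, held 69.0% of the ether lipid sum in HFD and 74.0% in HFD+allantoin. The oxidases stood at 5.66%, 5.64% and 5.13% in HFD and at 4.18%, 4.02% and 4.34% in HFD+allantoin, all lower. The peroxin sum was 145% to 150% of the oxidase sum in HFD and 198% to 223% in HFD+allantoin. These ratios are weighted by abundant genes and are given without a test.

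Unlike these ratios, the class sums in CPM depend on how libraries are scaled, and whether groups overlap is given for TMM scaling only. The 13 peroxins summed to 699, 741 and 734 CPM in HFD and 906, 864 and 868 CPM in HFD+allantoin, without overlap. No peroxin dominated this sum, since the largest, Pex11a, held 16.6% of it in HFD. The beta-oxidation sum was 8241, 8748 and 9846 CPM in HFD and 10660, 9643 and 10110 CPM in HFD+allantoin, with overlap, and Scp2 alone held 46.0% of it in HFD and 41.6% in HFD+allantoin. The oxidase sum was 466, 493 and 505 CPM against 446, 388 and 439 CPM, and that of alpha-oxidation, 98.5% of it Phyh in HFD, was 1845, 2094 and 2081 CPM against 1539, 1647 and 1411 CPM, both without overlap. All 44 members together summed to 16370, 18330 and 18970 CPM in HFD and 19180, 17730 and 17660 CPM in HFD+allantoin, so the total did not separate the groups. Median log2 fold changes were 0.26 for peroxins, 0.22 for beta-oxidation, 0.42 for ether lipid synthesis and -0.13 for oxidases, and differences between these medians were not tested. Only 3 genes each were tested in the last 2 classes, so these 2 medians are the single values of Far1 and Hao1. Neither gene was called, and the oxidase Paox was at 0.61. The order of peroxins and beta-oxidation was not stable, since beta-oxidation had the higher median without HFD replicate 2 (0.35 against 0.21), HFD+allantoin replicate 4 (0.21 against 0.18) or HFD+allantoin replicate 5 (0.24 against 0.22). Scaled by library size only, the oxidase median stood at 0.27, below the 0.38 of all tested genes.

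Expression level was compared between genes as CPM per kilobase of merged exon. In HFD liver Cat and Scp2 led at 1180 each, followed by Phyh at 1040, Acaa1b at 739 and Ephx2 at 426, and Dao was last at 0.0283. In HFD+allantoin liver Scp2 stood at 1210 CPM per kilobase, Cat at 1050, Acaa1b at 928 and Phyh at 796. The neighbours Cat and Scp2 did not differ beyond their spread in HFD. The median was 102 for beta-oxidation enzymes and 14.0 for peroxins in HFD, where peroxins ran from 1.77 (Pex10) to 45.3 (Pex16), and 0.961 for ether lipid enzymes. Of the 3 peroxins that rose, Pex26 at 2.32 and Pex7 at 3.77 CPM per kilobase lay below the peroxin median in HFD and Pex19 at 17.3 above it, and they stood at 5.22, 6.10 and 30 in HFD+allantoin, in the same order. Ehhadh, the 15th member by level in HFD, went from 82.0 to 168 CPM per kilobase, and Pxmp4 from 48.3 to 24.2.

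**Figure D3:**
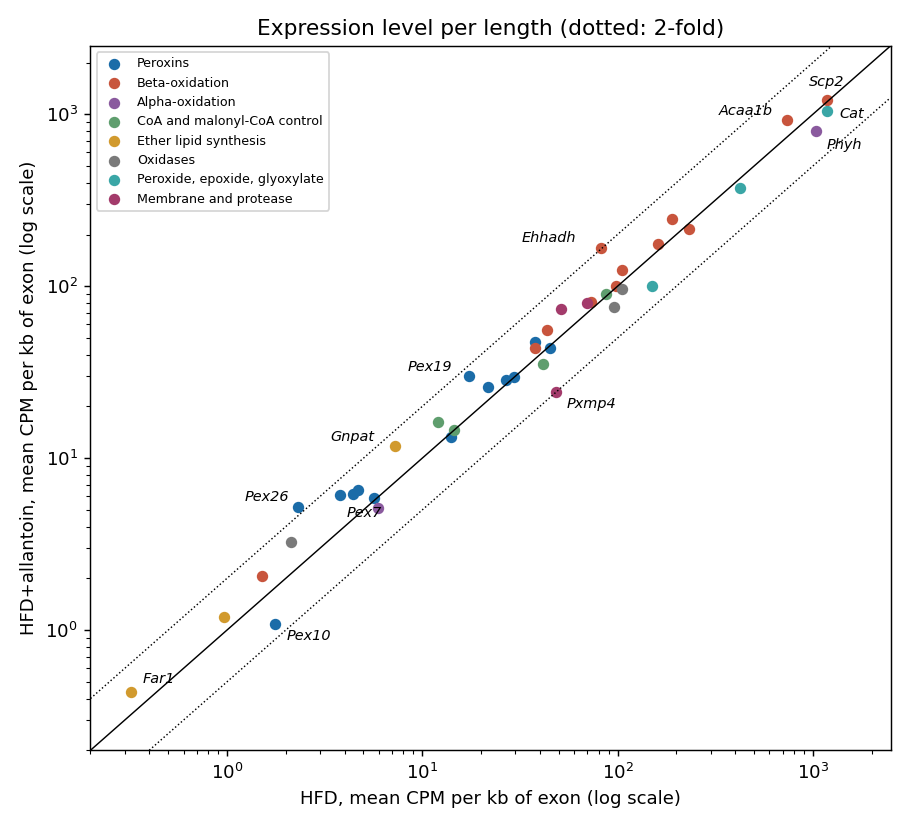
Mean CPM per kilobase of exon in HFD (x axis, log scale) and in HFD+allantoin (y axis, log scale) for the 43 tested members, coloured by role, with a solid line of equality and dotted lines at a 2-fold difference. Most members lie close to the line of equality over their range from 0.324 (Far1) to 1180 (Cat and Scp2), Pex26 and Ehhadh lie on or just above the upper dotted line, and Pxmp4 lies on the lower one.

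Libraries of the same group also differed. The coefficient of variation was higher in HFD than in HFD+allantoin for 32 of 43 members (74.4%), with medians of 16.6% and 8.66%. This was a feature of the whole table, where 73.7% of tested genes showed it and the medians were 24.4% and 14.0%. Of the HFD libraries, replicate 1 held the lowest value for 30 of the 43 members (69.8%), replicate 2 for 6 and replicate 3 for 7, whereas replicate 1 was the lowest HFD library for 36.2% of all tested genes. It was the lowest of all 6 libraries for 23 members. Of the 5 genes that rose, 4 had their lowest HFD value there, and Pex26 had it in replicate 3.

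**Figure D4:**
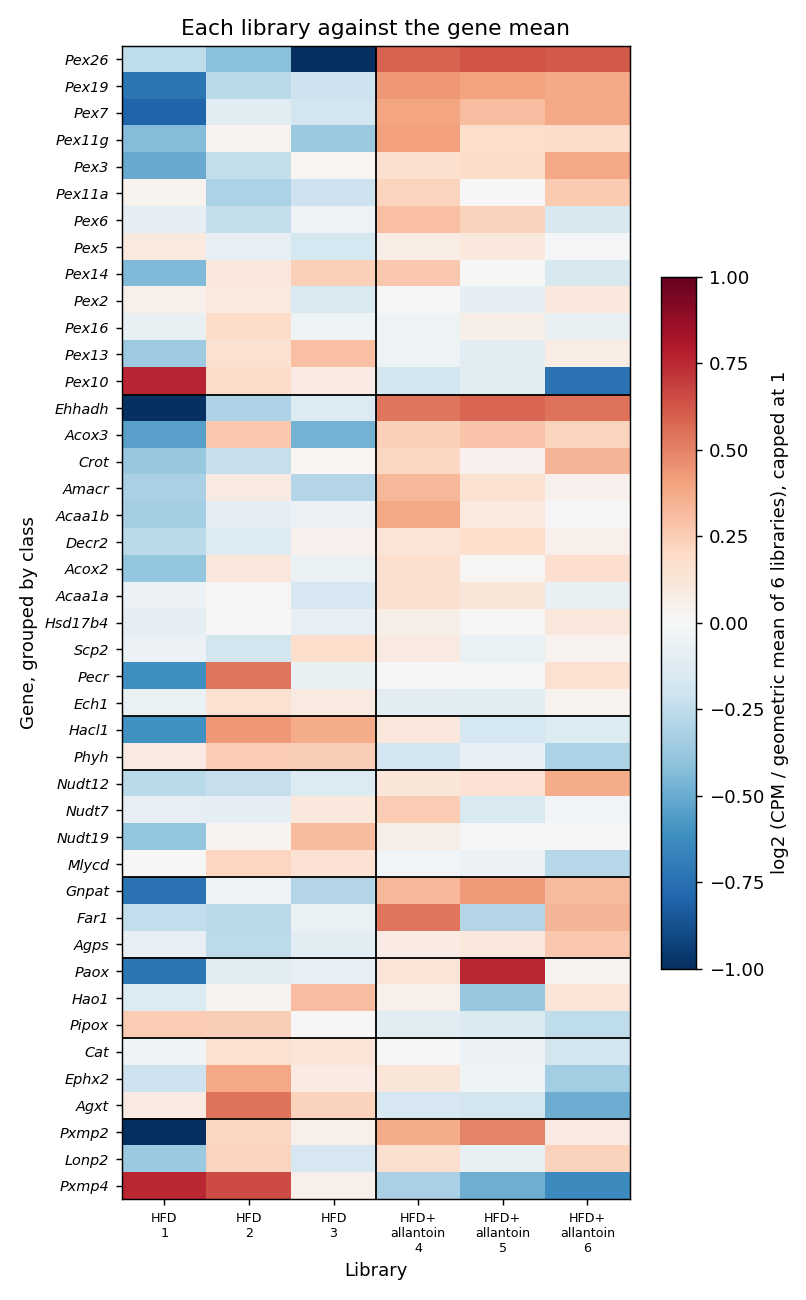
Log2 of CPM over the geometric mean of the 6 libraries (colour, capped at 1 in either direction) for the 43 tested members (rows, grouped by role) in each library (columns). HFD replicate 1 is blue for most rows and was the lowest HFD library for 30 of the 43 members, and Pex26, Pex19, Pex7, Ehhadh and Gnpat turn from blue in HFD to red in HFD+allantoin while Pxmp4 does the reverse.

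A further list of 53 genes that are no members, of which 49 were tested, holds other peroxisomal genes and some whose products act mainly elsewhere, such as Fads2 and Abcd4. Like that of the PPAR genes below, this list was chosen with earlier results of these data known, so its shares are description only. In this list 16 rose (32.7%) and 3 fell (6.12%), with 36 positive and 13 negative values and a median log2 fold change of 0.44, against 11.3% and 13.0% and a median of -0.03 for all tested genes. Fads2, Zadh2, Prdx5, Acot4 and Pnpla8 were among those with the smallest p. Fads2, the delta-6 desaturase of polyunsaturated fatty acid synthesis, rose by 2.07 on the log2 scale, Acot4, an acyl-CoA thioesterase, by 1.67, Pnpla8, a phospholipase, by 1.04, and Zadh2 by 1.02 (adjusted p of 0.00337 to 0.00490). Prdx5, a peroxiredoxin that also works in mitochondria, was at 431, 500.3 and 434 CPM in HFD and 233, 216 and 192 CPM in HFD+allantoin and fell by 1.09 on the log2 scale (adjusted p = 0.00403). Exons of Prdx5 overlap those of Trmt112 on the opposite strand by 409 bases, and Acot4 shares a stretch of 543 bases at 97.1% identity with Acot6.

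A set of 3 ABC transporters of the list is named after their values were seen. The peroxisomal acyl-CoA transporters Abcd2 and Abcd3 rose by 1.72 and 1.25 on the log2 scale (adjusted p = 0.00938 and 0.00618) and Abcd4, which acts in lysosomal cobalamin transport, fell by 1.12 (adjusted p = 0.0186).

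Of the 13 genes for PPAR receptors, their RXR partners and coregulators, 3 rose (23.1%, against 11.3% of all tested genes) and 0 fell (against 13.0%), with a median log2 fold change of 0.33. Ppara was at 39.1, 27.4 and 18.9 CPM in HFD and 109, 145.5 and 91.4 CPM in HFD+allantoin and rose by 2.02 ± 0.29 on the log2 scale (SE, adjusted p = 0.00389). Rxra, its binding partner, was at 199, 211.5 and 186.5 CPM in HFD and 391, 424 and 313 CPM in HFD+allantoin and rose by 0.92 (adjusted p = 0.00787). The coactivator Ppargc1a rose by 0.9997, from 3.49, 3.36 and 5.18 CPM to 6.82, 9.52 and 7.83 CPM (adjusted p = 0.0343), a call lost when any library but HFD replicate 3 was left out. The next by p, Ncoa2, Ppargc1b and Rxrg, were at 0.56, 1.196 and -0.54 and did not pass the test.

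Promoter windows from 250 bases before to 50 bases after a start site were taken from RefSeq (GRCm38.p6) and were at hand for 37 of the 44 members. A single window was searched per gene, although some genes, such as Paox with 2, had more. The windows used for Paox and Scp2 lie inside the annotated gene. The PPAR-RXR pair is known to bind a direct repeat of AGGTCA with 1 base between the copies, and both strands were searched. AGGTCA alone was found in 4 of 37 windows (10.8%; Cat, Pex11g, Phyh and Scp2) and in 4335 of 27025 windows of all genes (16.0%). The exact repeat was in 0 of 37 windows and in 12 of all (0.0444%). With up to 2 mismatches, which overlaps the shorter motif where a copy is intact, the repeat was in 1 member window (2.70%), that of Cat, and in 1031 of all (3.81%). The Cat match, AGGTCAGAGAACA, starts 204 bases before the start site on the strand of the gene, and Cat did not pass the test. None of the windows of Pex7, Pex26, Ehhadh, Gnpat and Pxmp4 held such a match, and Pex19 was among the 7 members with no window. With a match in only 3.81% of all windows, none would be found in most sets this small. Sequence outside the windows was not searched, so whether these genes have a PPAR site elsewhere was not tested. The member windows held a median of 15 CG dinucleotides, against 7 in all windows.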

How the data were processed

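The 6 liver libraries comprise 3 of HFD and 3 of HFD+allantoin. The deposited values are raw whole-number counts for every gene, which the authors obtained after read filtering and left unnormalized. The aligner, counter and strand setting are not given in the sources used here, and the submitters' processing notes name the builds GRCm38 and mm10. Of 54961 entries, 54532 carry Ensembl identifiers, of which 54495 were matched in GENCODE M21 (GRCm38), and the 429 other entries (0.197% to 0.306% of counts per library) were not used. All 44 member symbols were found.

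Differential expression was calculated with edgeR 4.0.16 in R 4.3.3 (TMM, filterByExpr, quasi-likelihood test, Benjamini-Hochberg adjustment over 12795 genes). The SE was derived from the F statistic. A called gene has an adjusted p under 0.05. Counting error was not calculated, and intervals of counting error were not used. It cannot be neglected beside the smallest spreads, such as that of Pex26 in HFD+allantoin. There the coefficient of variation was 1.42% at 397 to 506 counts, so the SD may understate the uncertainty. With 3 libraries per group an exact permutation test cannot go below p = 0.1, so no such test was made on sums or ratios. No batch or date is given, so an effect of either cannot be told apart from the group.

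Every library value is given for each called member and for the smallest-p member of each class, the 6 smallest p were selected in the list of other peroxisomal genes and among PPAR genes and coregulators, and further genes were added after their values were seen. Values of some list genes are not reported here. The members and the lists were chosen with earlier results of these data known. Coding ends came from the longest coding transcript per gene in GENCODE M21, promoters from RefSeq, overlapping exons from the annotation, and near-identical transcripts (at least 95% identity over 200 bases) from BLAST 2.17.0. The 17 alternatives included DESeq2 1.42.0 and limma 3.58.1 (voom), other scalings and filters, and leaving out each library. The scripts were tested on simulated data.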

Additional observations from a re-analysis of the deposited data

How the results depend on the processing

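No called value reversed under the 15 alternatives that refit the genes. The remaining alternatives changed only the threshold for a call, so no value could reverse in them. Scaling by library size only, which moved the median log2 fold change of all tested genes from -0.03 to 0.38, gave 3162 genes higher and 674 lower (82.4% of calls higher, against 46.5%). It gave 15 members higher and 0 lower (100% of calls higher, against 83.3%), 28 and 1 other peroxisomal genes, and medians of 0.56 for the members, 0.68 for peroxins, 0.63 for beta-oxidation, 0.27 for oxidases and 0.83 for ether lipid enzymes, and Pxmp4 (log2 fold change -0.56) lost its call. Relative to the shift, the oxidase median, of 3 tested genes, stayed below that of all genes and the other medians above it. An adjusted p under 0.01 left 443 genes higher and 573 lower, 1 and 0 members, and 9 and 1 other peroxisomal genes. In a separate setting, an adjusted p under 0.05 together with a log2 fold change above 1 in size left 722 and 974 genes and 2 and 0 members. DESeq2, limma-voom and a filter of CPM over 1 in 3 libraries each called 2 members lower, the added one being Agxt. Removing the trend in length and GC content gave a peroxin median of 0.35 and Pex7 lost its call.

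Fits without 1 library gave 460 to 1773 genes higher and 564 to 2008 lower, 1 to 7 members higher and 0 to 2 lower, 9 to 21 other peroxisomal genes higher and 1 to 3 lower, and medians of 0.18 to 0.30 for peroxins, 0.15 to 0.35 for beta-oxidation (the highest without HFD replicate 2), -0.23 to 0.019 for oxidases and 0.35 to 0.64 for ether lipid enzymes. The lowest count of genes came without HFD+allantoin replicate 5. Each HFD+allantoin library left out gave 1 member higher, and the oxidase median turned positive without HFD replicate 3 (0.01) and without HFD+allantoin replicate 5 (0.019). The cause was not tested. No paired analysis was possible because the groups share no replicate numbers. Depth limits Dao, Far1 and Pex10 most.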
